A study of Mus musculus with 8 samples.

Results

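The genes described here are 32 genes of sterol and fatty acid synthesis, measured by RNA-seq in bone marrow-derived macrophages (BMDMs) that carried or lacked Mkl1. They were found by gene symbol, and all 32 were among the 53735 genes counted and among the 14418 genes with enough counts to be tested. By role they comprised 7 genes of the mevalonate steps, 11 genes of the sterol steps, 5 regulators and transport genes and 9 fatty acid genes. WT mice were Mkl1+/+, Apoe-/- and KO mice were Mkl1-/-, Apoe-/-, so every library came from a mouse without Apoe, and the deletion of Mkl1 was global rather than limited to macrophages. The mice were male and 6 months old, and all received angiotensin II (Ang II) from an osmotic minipump for 7 days, after which their marrow cells were differentiated in culture for 7 days. The 8 libraries belonged to 2 experiments, which the submitters call batches and compared separately: libraries 1 and 2 (WT) and 5 and 6 (KO) formed experiment 1, and libraries 3 and 4 (WT) and 7 and 8 (KO) formed experiment 2. Each group therefore held 2 libraries. The labels do not say whether the libraries of a group came from separate animals or cultures, so the p-values measure only the spread between these libraries.

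Cells build cholesterol from acetyl-CoA through mevalonate, which is turned into isoprenoid units, squalene, lanosterol and then cholesterol. The transcription factor SREBP2, encoded by Srebf2, drives most of these enzymes: its precursor is escorted from the endoplasmic reticulum by SCAP when sterols are scarce and is held back there by the INSIG proteins when sterols are plentiful. The related SREBP1 drives many genes that make and desaturate fatty acids. Macrophages also receive much cholesterol from engulfed lipoproteins and cells and must export it, a task in which apolipoprotein E takes part. MKL1 is a coactivator of serum response factor that enters the nucleus when actin polymerizes.

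Promoter sequences are shown for the gene with the smallest p in experiment 1 in each role group, among genes with a single RefSeq entry, because the genes of the pathway are known to share short promoter motifs. Of the 32 genes, 25 had an entry in the RefSeq promoter set (GRCm38.p6), which covers 250 bases before to 50 bases after the start. Capitals mark matches, on either strand, to CCAAT, the box bound by NF-Y (ATTGG on the other strand), or to TCACNCCAC, a form of the sterol regulatory element that SREBP binds. The runs read 5' to 3' along the gene's strand and stop before the RefSeq start or, where that comes earlier, before the first base of the gene in GENCODE, which left 250 bases for Hmgcs1, 201 for Cyp51, 201 for Insig1 and 219 for Elovl6.
Hmgcs1, chr13:119690101-119690350, plus strand: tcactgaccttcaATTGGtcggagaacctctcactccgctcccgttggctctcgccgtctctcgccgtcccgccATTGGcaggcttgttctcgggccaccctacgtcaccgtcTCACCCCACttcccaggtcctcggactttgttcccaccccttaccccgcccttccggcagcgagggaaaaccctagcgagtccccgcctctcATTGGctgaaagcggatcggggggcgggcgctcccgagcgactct
Cyp51, chr5:4104747-4104947, minus strand: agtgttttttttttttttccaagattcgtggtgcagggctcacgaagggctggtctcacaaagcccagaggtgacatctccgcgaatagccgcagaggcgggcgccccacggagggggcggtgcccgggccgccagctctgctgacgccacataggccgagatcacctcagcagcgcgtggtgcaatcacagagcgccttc
Insig1, chr5:28071162-28071362, plus strand: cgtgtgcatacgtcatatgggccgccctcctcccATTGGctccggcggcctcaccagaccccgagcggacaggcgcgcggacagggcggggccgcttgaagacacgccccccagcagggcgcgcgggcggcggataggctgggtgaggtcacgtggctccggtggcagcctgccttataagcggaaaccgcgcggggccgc
Elovl6, chr3:129532136-129532354, plus strand: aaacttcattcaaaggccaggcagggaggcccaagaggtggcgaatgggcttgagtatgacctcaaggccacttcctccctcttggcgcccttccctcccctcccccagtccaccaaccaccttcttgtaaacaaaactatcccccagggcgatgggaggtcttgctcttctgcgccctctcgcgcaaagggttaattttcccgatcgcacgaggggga

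The Hmgcs1 promoter held the TCACNCCAC letters 137 bases before the RefSeq start, and CCAAT boxes at 237, 176 and 45 bases before it. Insig1 held 1 CCAAT box, 216 bases before the start. The CCAAT box of Cyp51 lay 29 bases before the RefSeq start and inside the first exon of the GENCODE model, so it is not shown, and Elovl6 held neither motif. Among the 25 genes with an entry, CCAAT was found in 20 (80.0%), against 41.1% of the 27025 genes in the set. TCACNCCAC was found in 1 of the 25 (4.00%) against 1.44% of all genes. These matches are descriptions of the letters, and a window without a match says nothing about binding. No entry was given for Fdps, Fdft1, Sqle, Stard4, Scd1, Scd2 and Fads1.

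The libraries held between 33977799 and 41584540 counts, and the most abundant gene took at most 2.34% of a library. Mkl1 was lower in KO in both experiments but not absent: it stood at 25.6 and 27.1 CPM in WT and 19.5 and 20.9 CPM in KO of experiment 1 (log2 fold change -0.39, SE 0.08, adjusted p = 0.00381), and at 26.8 and 29.6 CPM in WT and 14.6 and 10.4 CPM in KO of experiment 2 (log2 fold change -1.17, SE 0.19, adjusted p = 0.0218). These counts cover the whole gene and do not separate its deleted part. CPM are counts divided by the library size and expressed per 1000000, with sizes scaled by TMM over all 8 libraries. Of 10 macrophage markers, 9 were found in every library at 19.7 CPM or more, and F13a1 had no count in WT 4 and at most 5.14 CPM elsewhere. The markers did not move together: 6 were higher and 3 lower in KO in experiment 1, and 2 were higher and 2 lower in experiment 2. Adgre1 had log2 fold changes of -2.11 and 0.91 in experiments 1 and 2, Itgam of -1.03 and 1.34, and Mrc1 of 1.91 and -0.09, of which that of Mrc1 in experiment 2 did not pass. No lymphocyte marker passed 0.0587 CPM. The groups did not order by genotype over all genes. The standard deviation of the log2 difference across the genes tested was smallest, at 0.406, for the pair formed by WT of experiment 1 with KO of experiment 2, whereas KO and WT lay 0.976 apart in experiment 1 and 0.863 apart in experiment 2. Fibroblast markers (9 listed, 7 tested) summed to 226 and 298 CPM in KO 5 and KO 6, against 2.52 to 13.9 CPM in the other 6 libraries. The 12 interferon-stimulated genes summed to 524 and 558 CPM in WT and 1717 and 1596 CPM in KO of experiment 1, and to 9600.2 and 4403 CPM in WT and 1081 and 719 CPM in KO of experiment 2. Dendritic cell markers (6 listed, 2 tested) summed to 19.99 and 30.02 CPM in KO 5 and KO 6 and to 32.4 and 47.7 CPM in WT 3 and WT 4, against 1.65 to 4.01 CPM in the others. Itgax, which macrophages also express, reached 46.7 CPM, while Zbtb46 stayed at or below 0.658 CPM and Flt3, Cd209a, Xcr1 and Clec9a at or below 0.493 CPM. Of 10 genes of dividing cells, 5 were lower and 1 higher in KO in experiment 1, and 6 were lower in experiment 2. Over all genes tested, 28.1% were lower and 27.0% higher in experiment 1, and 8.29% lower and 7.52% higher in experiment 2. No neutrophil marker passed 1.33 CPM, and of 8 adipocyte markers the 3 tested were Lpl, Fabp4 and Pparg, which macrophages also express.

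In experiment 1, 29 of the 32 genes were higher in KO BMDMs and none was lower. The median log2 fold change was 1.06 over the 32 genes, against 0.01 over all genes tested, and 18 genes were at least 2-fold higher, as were 1501 of the 14418 genes tested. All 7 mevalonate genes, 10 of the 11 sterol genes, 3 of the 5 regulators and transport genes and all 9 fatty acid genes rose, with medians of 1.08, 0.94, 0.47 and 1.42. Calls were by edgeR's quasi-likelihood test at a Benjamini-Hochberg adjusted p under 0.05 over all genes tested. In this comparison the share of all tested genes that rose in KO was 27.0%, and the share that fell was 28.1%. Both KO libraries stood above both WT libraries for 29 of the 32 genes, against 41.2% of all genes tested. The 7 fibroblast markers tested were all higher in the same KO libraries, as were 10 of the 12 interferon-stimulated genes, and their part in the result was not tested. In RNA from whole cultures, a change in the RNA of each macrophage and a change in the share of cells of one type cannot be told apart.

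**Figure D1:**
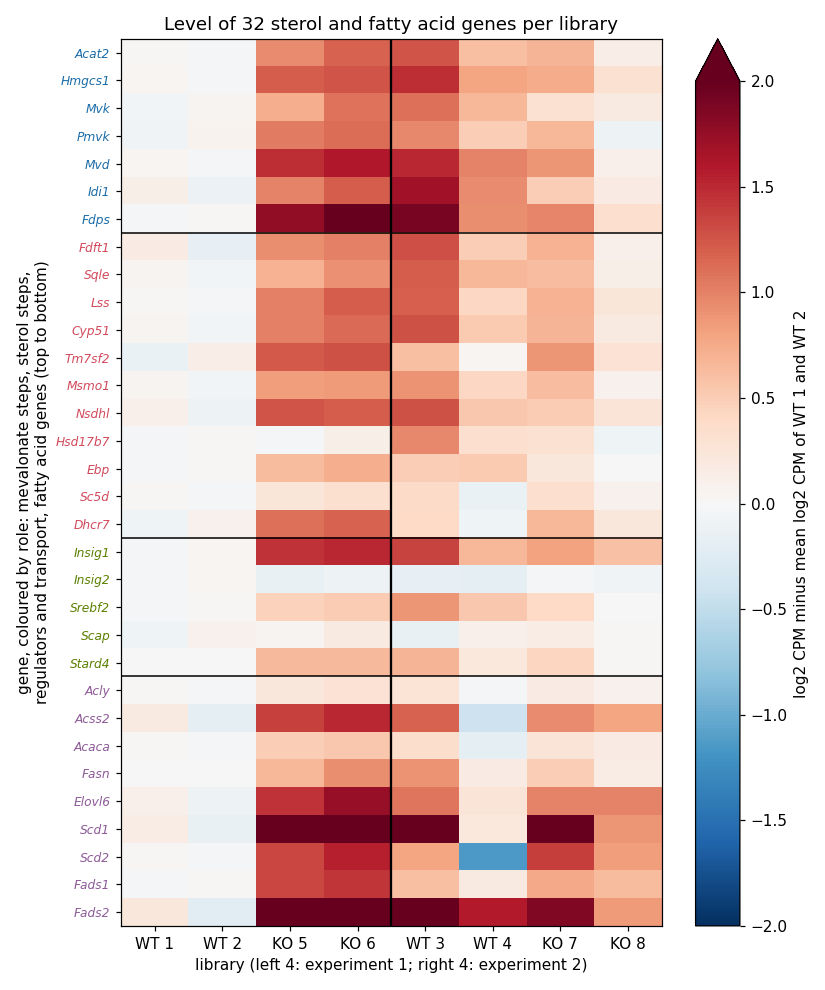
Level of each of the 32 genes (rows, grouped by role) in each of the 8 libraries (columns), as log2 CPM minus the mean log2 CPM of WT 1 and WT 2, with colours running from -2 to 2 and larger values drawn at the end colour. KO 5, KO 6 and WT 3 are the darkest columns, and WT 1 and WT 2 the palest.

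The mevalonate genes turn acetyl-CoA into farnesyl diphosphate. Hmgcs1, which makes HMG-CoA, stood at 92.8 and 88.2 CPM in WT and 209.9 and 217 CPM in KO of experiment 1 (log2 fold change 1.23, SE 0.06, adjusted p = 3.09e-06). Mvd, the decarboxylase that yields isopentenyl diphosphate, stood at 14.6 and 13.9 CPM in WT and 39.8 and 43.3 CPM in KO (log2 fold change 1.53, SE 0.08, adjusted p = 4.21e-06). Fdps, farnesyl diphosphate synthase, stood at 4.28 and 4.40 CPM in WT and 14.8 and 17.5 CPM in KO (log2 fold change 1.88, SE 0.13, adjusted p = 1.43e-05). All 3 genes were more than 2-fold higher in KO, with no overlap between the groups. Mvk, mevalonate kinase, stood at 9.98 and 10.7 CPM in WT and 17.1 and 21.9 CPM in KO (log2 fold change 0.90, SE 0.13, adjusted p = 8.43e-04). Idi1, the isomerase of isopentenyl diphosphate, stood at 4.62 and 3.93 CPM in WT and 8.44 and 9.85 CPM in KO (log2 fold change 1.08, SE 0.15, adjusted p = 5.45e-04). The KO libraries were again both above the WT libraries for each gene, as for 41.2% of all genes tested. The remaining mevalonate genes were the thiolase gene Acat2 and the phosphomevalonate kinase gene Pmvk, which rose by 1.06 and 1.07 on the log2 scale.

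The sterol steps lead from farnesyl diphosphate through squalene and lanosterol to cholesterol. Cyp51, which removes a methyl group from lanosterol, stood at 62.5 and 57.8 CPM in WT and 121 and 132 CPM in KO of experiment 1 (log2 fold change 1.06, SE 0.07, adjusted p = 1.08e-05). Nsdhl, which acts in the removal of the next methyl groups, stood at 18.00 and 15.7 CPM in WT and 40.01 and 38.97 CPM in KO (log2 fold change 1.21, SE 0.08, adjusted p = 1.47e-05). Lss, which closes the sterol rings, stood at 45.2 and 43.6 CPM in WT and 89.6 and 103 CPM in KO (log2 fold change 1.10, SE 0.08, adjusted p = 1.74e-05). These 3 genes were more than 2-fold higher in KO, with no overlap. Ebp, a sterol isomerase, stood at 33.6 and 34.7 CPM in WT and 53.1 and 56.8 CPM in KO (log2 fold change 0.67, SE 0.07, adjusted p = 8.71e-05). Sqle, squalene epoxidase, stood at 51.05 and 47.4 CPM in WT and 79.4 and 92.97 CPM in KO (log2 fold change 0.80, SE 0.09, adjusted p = 1.98e-04). Both rose by less than 2-fold without overlap. Both KO libraries stood above both WT libraries for 41.2% of all genes tested. Hsd17b7, a keto-reductase of the same steps, stood at 23.7 and 24.6 CPM in WT and 23.6 and 26.2 CPM in KO (log2 fold change 0.03, SE 0.08, adjusted p = 0.748). It was the sterol gene that did not pass the test, and its WT and KO libraries overlapped. Among the others, the reductase genes Tm7sf2 and Dhcr7 rose by 1.23 and 1.13 on the log2 scale, the squalene synthase gene Fdft1 by 0.94, the methyl sterol oxidase gene Msmo1 by 0.83 and the desaturase gene Sc5d by 0.27.

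Among regulators, Insig1 moved most in experiment 1 and its relative Insig2 did not pass the test. Insig1, itself a target of SREBP2, stood at 57.5 and 60.5 CPM in WT and 161 and 168 CPM in KO (log2 fold change 1.47, SE 0.06, adjusted p = 1.67e-06). Stard4, a cytosolic sterol carrier, stood at 33.8 and 33.8 CPM in WT and 52.99 and 52.9 CPM in KO (log2 fold change 0.64, SE 0.06, adjusted p = 7.36e-05). Srebf2 stood at 71.2 and 72.8 CPM in WT and 99.3 and 102 CPM in KO (log2 fold change 0.47, SE 0.06, adjusted p = 2.21e-04). For these 3 genes both KO libraries were above both WT libraries, as for 41.2% of all genes tested. Insig2 stood at 24.6 and 25.9 CPM in WT and 22.7 and 23.4 CPM in KO (log2 fold change -0.14, SE 0.08, adjusted p = 0.153), the one gene of the 32 for which both KO libraries lay below both WT libraries. The escort gene Scap did not pass either (log2 fold change 0.10, SE 0.08, adjusted p = 0.306).

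The fatty acid genes showed the widest range. Scd1, a stearoyl-CoA desaturase that makes oleate, stood at 6.49 and 5.25 CPM in WT and 146 and 135 CPM in KO of experiment 1 (log2 fold change 4.56, SE 0.10, adjusted p = 3.13e-07), which is 23.6-fold. Scd2, a second stearoyl-CoA desaturase, stood at 191 and 185 CPM in WT and 478 and 555 CPM in KO (log2 fold change 1.44, SE 0.08, adjusted p = 7.26e-06). Neither gene overlapped between the groups. In an edgeR fit of all 8 libraries as 4 groups, Scd2 was not past the threshold (adjusted p = 0.0583). Fads1 and Fads2 encode desaturases of polyunsaturated fatty acids. Fads1 stood at 58.5 and 60.8 CPM in WT and 150.1 and 160.3 CPM in KO (log2 fold change 1.37, SE 0.06, adjusted p = 2.33e-06). Fads2 stood at 8.21 and 5.99 CPM in WT and 49.99 and 62.2 CPM in KO (log2 fold change 2.96, SE 0.19, adjusted p = 1.42e-04). All 4 desaturase genes had KO libraries well apart from WT. Both KO libraries stood above both WT libraries for 41.2% of all genes tested. The elongase gene Elovl6 rose by 1.58 on the log2 scale, the acetyl-CoA synthetase gene Acss2 by 1.42, the fatty acid synthase gene Fasn by 0.79, the acetyl-CoA carboxylase gene Acaca by 0.50 and the ATP citrate lyase gene Acly by 0.24. Acly was no longer past the threshold without KO 6 (adjusted p = 0.0517).

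In experiment 2 none of the 32 genes passed the test, and most had fold changes below 0. The median log2 fold change was -0.38, against 0.01 over all genes tested, with 22 genes below 0 and 10 above. This median rested partly on single libraries: it was -0.0265 without WT 3 and -0.12 without KO 8, but -0.64 without WT 4 and -0.60 without KO 7. By role the medians were -0.65 for the mevalonate genes, -0.39 for the sterol genes, -0.23 for regulators and transport genes and 0.11 for the fatty acid genes. Over all tested genes in this experiment, the share called lower was 8.29% and the share called higher 7.52%. At an unadjusted p under 0.05 there were 4 genes, Mvk, Idi1, Ebp and Srebf2, all with values below 0. Such a p was found for 4911 of the 14418 genes tested, 2419 of them lower. DESeq2 called 2 of the 32 lower (Mvk and Idi1). A fit of all 8 libraries as 4 groups called 4 lower (Mvk, Idi1, Ebp and Srebf2). The shares of all genes called in these fits are not given here. Both KO libraries lay below both WT libraries for 9 genes, against 32.5% of all genes tested, and above both for 3 (Insig2, Scd2 and Fads1), against 32.9%. Single genes moved with single libraries: without WT 3, the log2 fold change was 1.28 for Acss2 and 2.28 for Scd2. Without WT 4, it was -0.85 for Mvk, -1.34 for Idi1 and -0.89 for Nsdhl. Standard errors were wider than in experiment 1, with a median of 0.27 against 0.08 on the log2 scale. Of the 12 interferon-stimulated genes, 10 were lower in KO here, and their part in these values was not tested.

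**Figure D2:**
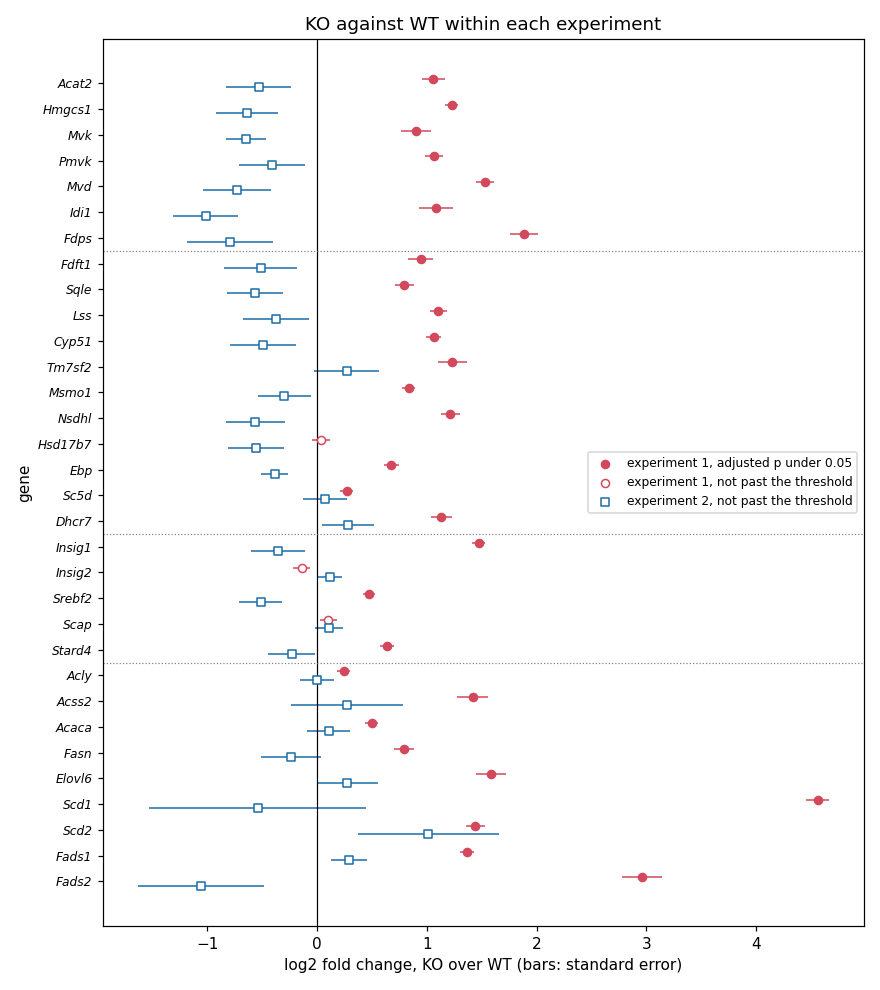
Log2 fold change of KO over WT (x axis) for each of the 32 genes (y axis), with bars of 1 standard error. Circles are experiment 1, filled where the adjusted p was under 0.05 (29 genes), and squares are experiment 2, where none of the 32 passed.

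Replicate libraries of experiment 2 differed more from each other than those of experiment 1, in these genes and over all genes tested, where the median absolute log2 difference was 0.178 and 0.201 in experiment 2 and 0.106 and 0.109 in experiment 1. Hmgcs1 stood at 253 and 156 CPM in WT and 151 and 112 CPM in KO of experiment 2 (log2 fold change -0.64, SE 0.28, adjusted p = 0.184), Mvd at 40.5 and 28.3 CPM in WT and 26.2 and 15.4 CPM in KO (log2 fold change -0.73, SE 0.31, adjusted p = 0.173). Fdps stood at 16.1 and 8.25 CPM in WT and 8.56 and 5.49 CPM in KO (log2 fold change -0.79, SE 0.39, adjusted p = 0.224). For Hmgcs1 and Mvd both WT libraries were above both KO libraries, while for Fdps WT 4 lay below KO 7. Mvk stood at 22.1 and 16.3 CPM in WT and 12.8 and 11.7 CPM in KO (log2 fold change -0.65, SE 0.19, adjusted p = 0.0731). Idi1 stood at 13.7 and 8.17 CPM in WT and 6.03 and 4.77 CPM in KO (log2 fold change -1.02, SE 0.30, adjusted p = 0.0774). The groups did not overlap for Mvk or Idi1. Both KO libraries lay below both WT libraries for 32.5% of all genes tested. Acat2 and Pmvk had log2 fold changes of -0.53 and -0.41.

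Among the sterol genes, Cyp51 stood at 145 and 85.9 CPM in WT and 95.9 and 67.8 CPM in KO of experiment 2 (log2 fold change -0.50, SE 0.30, adjusted p = 0.310). Nsdhl stood at 40.8 and 24.5 CPM in WT and 23.98 and 20.2 CPM in KO (log2 fold change -0.56, SE 0.27, adjusted p = 0.210). Lss stood at 102 and 59.1 CPM in WT and 71.7 and 52.4 CPM in KO (log2 fold change -0.38, SE 0.30, adjusted p = 0.434). WT 3 was the highest of the 4 libraries for each, and WT 4 lay between the KO libraries for Cyp51 and Lss and just above KO 7 for Nsdhl. Ebp stood at 48.2 and 49.2 CPM in WT and 40.2 and 34.2 CPM in KO (log2 fold change -0.39, SE 0.12, adjusted p = 0.0903). Sqle stood at 114 and 77.8 CPM in WT and 75.8 and 53.5 CPM in KO (log2 fold change -0.57, SE 0.25, adjusted p = 0.191). Hsd17b7 stood at 47.04 and 30.4 CPM in WT and 29.99 and 22.8 CPM in KO (log2 fold change -0.55, SE 0.26, adjusted p = 0.201). In all 3 genes both WT libraries were above both KO libraries, as for 32.5% of all genes tested. The log2 fold changes of the others were -0.51 for Fdft1, -0.30 for Msmo1, 0.27 for Tm7sf2, 0.28 for Dhcr7 and 0.07 for Sc5d. With 1 library left out, the sign turned for Lss, Tm7sf2 and Sc5d.

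Of the regulators, Srebf2 stood at 133 and 104 CPM in WT and 95.2 and 71.4 CPM in KO of experiment 2 (log2 fold change -0.51, SE 0.20, adjusted p = 0.137). Insig1 stood at 151 and 93.8 CPM in WT and 103 and 88.1 CPM in KO (log2 fold change -0.36, SE 0.25, adjusted p = 0.367). Stard4 stood at 54.4 and 39.3 CPM in WT and 45.5 and 34.2 CPM in KO (log2 fold change -0.23, SE 0.22, adjusted p = 0.497). WT 3 was again the highest library for each of these genes. Insig2 stood at 22.5 and 22.2 CPM in WT and 24.6 and 24.03 CPM in KO (log2 fold change 0.12, SE 0.11, adjusted p = 0.492), with both KO libraries slightly above both WT libraries. Scap had a log2 fold change of 0.11. Without WT 3, the sign turned for Insig1, Stard4 and Scap.

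Of the fatty acid genes, Scd1 and Scd2 had the widest spread between the WT libraries of experiment 2. Scd1 stood at 52.02 and 6.76 CPM in WT and 29.6 and 10.8 CPM in KO (log2 fold change -0.54, SE 0.99, adjusted p = 0.735). Scd2 stood at 325 and 84.6 CPM in WT and 491 and 335 CPM in KO (log2 fold change 1.01, SE 0.64, adjusted p = 0.331). In both genes WT 4 was the lowest of the 4 libraries, and the log2 fold change of Scd1 ranged from -1.44 to 1.58 with 1 library left out. Fads1 stood at 90.5 and 67.9 CPM in WT and 101 and 92.6 CPM in KO (log2 fold change 0.29, SE 0.17, adjusted p = 0.277). Fads2 stood at 58.03 and 20.99 CPM in WT and 25.2 and 12.7 CPM in KO (log2 fold change -1.06, SE 0.57, adjusted p = 0.264). Fads1 was slightly higher in both KO libraries, and the Fads2 libraries overlapped. The log2 fold changes of the others were 0.27 for Acss2, 0.27 for Elovl6, 0.11 for Acaca, -0.0029 for Acly and -0.24 for Fasn, and the sign of each of the 5 turned when 1 library was left out.

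**Figure D3:**
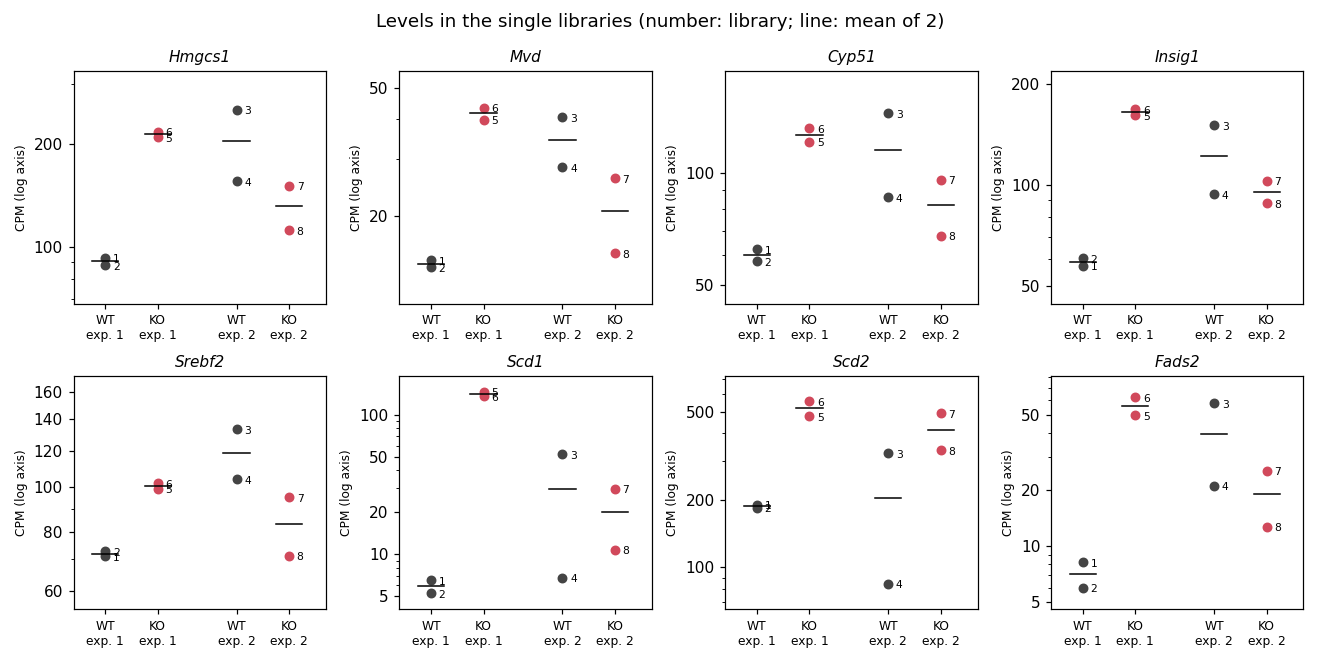
CPM on log axes for 8 of the genes, with 1 point per library (its number beside it), groups on the x axis and a line at the mean of 2 libraries. Points of WT 1 and WT 2 lie close together, whereas WT 3 and WT 4 lie apart, with WT 3 above WT 4 in all 8 panels.

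The KO effect differed between the experiments for 23 of the 32 genes by the test of the product of experiment and genotype, in each case lower in experiment 2, against 20.6% of all genes tested. The 23 genes comprised all 7 mevalonate genes, 8 sterol genes, 3 regulators and transport genes (Insig1, Srebf2 and Stard4) and 5 fatty acid genes (Fasn, Elovl6, Scd1, Fads1 and Fads2). Of the 23, 20 had a log2 fold change below 0 in experiment 2 and 3 above 0. The median difference over the 32 genes was -1.24 on the log2 scale, and for Ebp, which had the smallest p of the 32, it was -1.07 (SE 0.13, adjusted p = 0.00106). The call count was sensitive to single libraries: it was 12 without WT 2 and 15 without KO 6, with the same sign of the median. Of the 23 genes, 12 were called in all 8 fits with 1 library left out, among them 6 of the 7 mevalonate genes, while Dhcr7, Stard4 and Fasn lost the call in 6 of the 8 and Fdft1 in 5. The same test called all 12 interferon-stimulated genes lower (median difference -4.34) and 6 of the 7 fibroblast markers tested (median -5.80), and over all genes WT of experiment 1 lay closest to KO of experiment 2. The part of these in the difference was not tested. In a fit with both experiments joined and experiment as an additive term, none of the 32 genes passed, while 3.72% of all genes tested were higher in KO. There, 5 of the 32 had an unadjusted p under 0.05, as had 3632 of the 14418 genes tested. The median log2 fold change was 0.29, and lay between 0.12 (without WT 2) and 0.57 (without KO 8) with 1 library left out. DESeq2 called 5 of the 32 higher (Elovl6, Dhcr7, Tm7sf2, Fads1 and Scd2), and the share of all genes that it called is not given here.

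**Figure D4:**
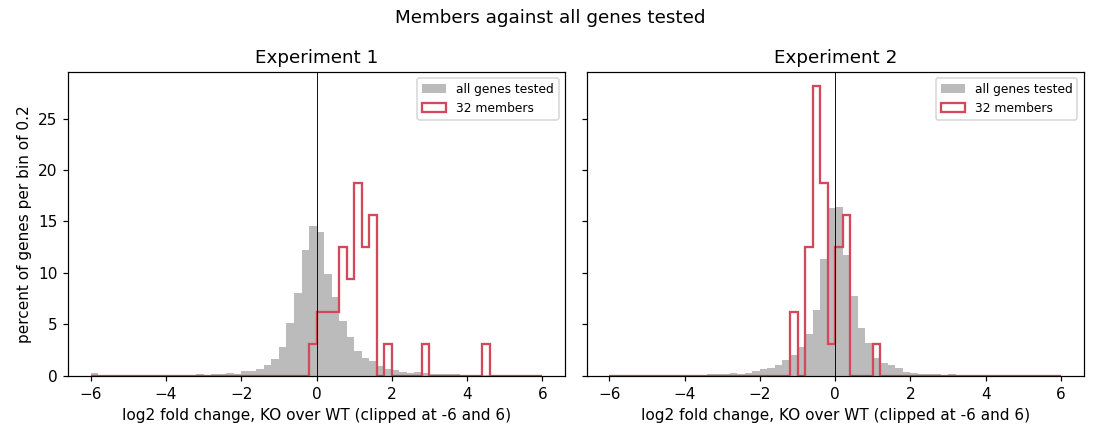
Share of genes (y axis, percent per bin of 0.2) by log2 fold change of KO over WT (x axis, clipped at -6 and 6), for all 14418 genes tested in grey and the 32 genes in red. The red outline lies mostly to the right of 0 in experiment 1 and mostly to the left of 0 in experiment 2, where it overlaps the grey bars.

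In 3 of the 4 groups, nearly all of the genes differed in the same direction between the 2 libraries of the group. WT 3 was above WT 4 for 30 of the 32 genes, against 51.0% of all genes tested, with a median of 1.51-fold. KO 7 was above KO 8 for 31 of the 32, against 50.5%, with a median of 1.33-fold. Within experiment 1, KO 5 was above KO 6 for 3 genes and WT 1 above WT 2 for 19, against 49.4% and 49.8% of all genes tested, with medians of 0.936-fold and 1.03-fold. Both WT libraries of experiment 2 stood above both WT libraries of experiment 1 for 23 of the 32 genes, against 35.5% of all genes tested. WT 3 was above both KO 7 and KO 8 for 26 genes, against 40.8% of all genes tested, whereas WT 4 was below KO 7 for 23 (49.7% of all genes) and below KO 8 for 11 (50.5%). KO 6 held the highest value for 17 genes, against 12.2% of all genes tested, and WT 3 for 13, against 19.7%. Summed over the 32 genes, the levels were 1523 and 1490.2 CPM in WT and 2857 and 3097 CPM in KO of experiment 1, and 2773 and 1733 CPM in WT and 2369.9 and 1829 CPM in KO of experiment 2.

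Per kilobase of exon, Scd2, Acly, Insig1 and Hmgcs1 had the 4 highest mean levels in each of the 4 groups, and Acss2 the lowest. The order among the 4 differed between groups: Acly led in WT, with 50.8 CPM per kb in experiment 1 and 55.5 in experiment 2, where Scd2 stood at 34.5 and 37.5. In KO Scd2 led, with 94.5 CPM per kb in experiment 1 and 75.6 in experiment 2, against 60.6 and 55.4 for Acly. Values of some genes are uncertain because their transcripts share sequence with other genes. Of the 50-base windows of Acat2, 39.1% also occur in other transcripts, mostly of Acat3, as do 30.4% of those of Acaca, 26.5% of Fdft1, 26.2% of Fdps and 25.3% of Idi1.

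In 4 further lists of the pathway, 46 genes could be tested: 22 rose and 11 fell in experiment 1, and 5 rose and 4 fell in experiment 2. Over all genes tested, 27.0% rose and 28.1% fell in experiment 1, and 7.52% rose and 8.29% fell in experiment 2, and the counts of these lists are descriptions beside those shares. Of 6 genes that escort, cleave or degrade the sterol regulators, 2 rose and 2 fell in experiment 1, and 1 rose in experiment 2. Mbtps1 and Mbtps2 encode the proteases that cleave SREBP. Their log2 fold changes were 0.40 (adjusted p = 4.95e-04) and -0.25 (0.0185) in experiment 1, and -0.28 (0.124) and 0.56 (0.0256) in experiment 2. Rnf139, a ubiquitin ligase of the endoplasmic reticulum, had 0.01 (0.937) in experiment 1 and -0.42 (0.109) in experiment 2.

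Of 12 other isoprenoid and sterol genes, 11 were tested: 2 rose and 4 fell in experiment 1, and 1 fell in experiment 2, against 27.0% rising and 28.1% falling in experiment 1 and 8.29% falling in experiment 2 over all genes tested. Lbr, a sterol reductase of the inner nuclear membrane, passed in both experiments, with log2 fold changes of 0.60 (adjusted p = 1.26e-04) in experiment 1 and -0.82 (0.0258) in experiment 2. Its 4 WT libraries stood at 69.2 and 66.1 CPM in experiment 1 and 135 and 112 CPM in experiment 2, and its KO libraries at 99.3 and 107 and at 75.6 and 64.2 CPM. The direction thus turned between the experiments. Pggt1b and Pdss1, which attach or make isoprenoid chains, fell by 0.62 and 0.87 in experiment 1, and had values of 0.26 and -0.77 without passing in experiment 2.

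Of 19 other fatty acid and lipogenic genes, 15 were tested. In experiment 1, 10 rose and 3 fell, against 27.0% and 28.1% of all genes tested. In experiment 2, 1 gene fell, against 8.29% of all genes tested. That gene was Acsl1, an acyl-CoA synthetase, at -2.05 in experiment 2 (adjusted p = 0.0301) and -0.67 in experiment 1 (2.82e-04). Its relative Acsl3 had 0.62 in experiment 1, past the threshold, and 0.94 in experiment 2 (adjusted p = 0.0753). Pcyt2, of phosphatidylethanolamine synthesis, rose by 0.86 in experiment 1 and had -0.20 in experiment 2. Me1, which supplies NADPH, fell by 0.64 in experiment 1 and had 0.56 in experiment 2 (adjusted p = 0.0694).

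Of 15 genes of sterol sensing by LXR and of sterol outflow, 14 were tested. In experiment 1, 8 rose and 2 fell, against 27.0% and 28.1% of all genes tested. In experiment 2, 4 rose and 2 fell, against 7.52% and 8.29%. Nr1h3, which encodes LXR alpha, was lower in KO in both experiments. It stood at 49.1 and 45.6 CPM in WT and 12.1 and 9.85 CPM in KO of experiment 1 (log2 fold change -2.12, SE 0.10, adjusted p = 4.69e-06), and at 118 and 122 CPM in WT and 28.3 and 23.9 CPM in KO of experiment 2 (log2 fold change -2.20, SE 0.13, adjusted p = 0.00372). All 4 KO libraries were below all 4 WT libraries. Cyp27a1, a sterol hydroxylase, had log2 fold changes of 2.34 (adjusted p = 2.39e-06) and -0.18 (0.590) in experiments 1 and 2. Mylip, a ubiquitin ligase induced by LXR, had -0.10 (0.233) and 1.16 (0.0161). Ch25h, an interferon-inducible hydroxylase that makes an oxysterol, was chosen after its values were seen: it stood at 4.18 and 4.08 CPM in WT and 8.63 and 12.2 CPM in KO of experiment 1 (log2 fold change 1.33, SE 0.19, adjusted p = 6.47e-04), and at 51.4 and 24.7 CPM in WT and 2.81 and 1.32 CPM in KO of experiment 2 (log2 fold change -4.21, SE 0.54, adjusted p = 0.0163).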

How the data were processed

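RNA-seq was performed on BMDMs in 8 libraries made with a stranded mRNA kit. For each experiment the authors deposited a table of unnormalized gene counts, all of them whole numbers. Per the labels, the submitters' processing notes name STAR 2.7.0f, Subread 1.6.4 with featureCounts, DESeq2 1.22.1 and the build GRCm38; the annotation is not given in the sources used here. The deposited normalized counts were not used.

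From the counts, genes passing filterByExpr by genotype over all 8 libraries were kept (14418 of 53735). Each experiment was fitted alone in edgeR 4.0.16 (R 4.3.3; TMM, robust quasi-likelihood F test), with Benjamini-Hochberg adjustment over all genes tested and a threshold of 0.05. The difference between experiments was the product term in a fit of all 8 libraries, and a joint fit had experiment as an additive term. Standard errors were taken from the fold change and its F statistic (absolute log2 value over the root of F). The total of 33977799 to 41584540 counts per library limits only counting error, while 2 libraries per group limit the tests. The fits were tested on simulated data. Gene lengths, positions and shared 50-base windows came from GENCODE M21 on GRCm38, and promoters from RefSeq.

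Every member is named. Values in each library are given for the 3 members of each role with the smallest p in either experiment, and of each other list up to 2 genes per experiment are named, those with the smallest p before some genes were left out. Ch25h was added after its values were seen. Genes left out are not reported here, and the gene next in p was not named in their place. The members and lists were chosen with earlier results of these data known. Alternatives were DESeq2 1.42.0, limma-voom (limma 3.58.1), RLE and upper-quartile scaling, other filters, other designs, a threshold of 0.01 and leaving out each library.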

Additional observations from a re-analysis of the deposited data

Results flagged for a closer look

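The KO effect differed between the experiments for 23 of the 32 genes by the test of the product term, given here as log2 fold change in experiment 2 minus that in experiment 1. Each was called lower in experiment 2, as were 20.6% of all genes tested. Among the mevalonate genes the difference was -1.61 for Acat2, -1.88 for Hmgcs1, -1.56 for Mvk, -1.49 for Pmvk, -2.27 for Mvd, -2.11 for Idi1 and -2.69 for Fdps. Among the sterol genes it was -1.47 for Fdft1, -1.37 for Sqle, -1.49 for Lss, -1.57 for Cyp51, -1.14 for Msmo1, -1.79 for Nsdhl, -1.07 for Ebp and -0.86 for Dhcr7. Insig1 had -1.84, Srebf2 -0.997 and Stard4 -0.88. Among the fatty acid genes it was -1.04 for Fasn, -1.32 for Elovl6, -5.12 for Scd1, -1.09 for Fads1 and -4.04 for Fads2. The Scd1 difference had an SE of 1.19 and ranged from -5.99 to -2.97 with 1 library left out. Dhcr7, Stard4 and Fasn lost the call in 6 of the 8 fits with 1 library left out, and Fdft1 in 5. Pmvk, Msmo1 and Elovl6 lost it in 3, Lss and Scd1 in 2, and Sqle and Cyp51 in 1.

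The same test passed for other named genes, and in either direction for 41.6% of all genes tested. The targeted gene Mkl1 had -0.79, a larger reduction in experiment 2. Of the genes around the pathway, the difference was -0.69 for Mbtps1, 0.80 for Mbtps2, -1.43 for Lbr, 0.86 for Pggt1b, -1.07 for Pcyt2, -1.39 for Acsl1, 1.19 for Me1, -2.53 for Cyp27a1, 1.24 for Mylip and -5.54 for Ch25h. Each experiment held both genotypes and was a batch of its own, and what made the KO effect differ between the experiments was not tested. Groups of 2 libraries are too small for a test of single outlying libraries.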

How the results depend on the processing

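In experiment 1, 26 to 29 members were called under every alternative run, and the median stayed above 0; in the fit of all 8 libraries as 4 groups, Sc5d, Acly and Scd2 were no longer past the threshold. In experiment 2 the count of 0 became 2 with DESeq2, 2 without a filter on low counts and 4 in the 4-group fit, and ranged from 0 to 3 with 1 library left out. The median there ranged from -0.64 to -0.0265 with 1 library left out, and was -0.0265 without WT 3. The 23 members that differed between the experiments became 12 at an adjusted p under 0.01, and ranged from 12 (without WT 2) to 29 (without WT 4); 15 were called without KO 6, and the median difference ranged from -1.64 to -0.922. In the joined fit the count of 0 became 5 with DESeq2, and the median ranged from 0.12 to 0.57 with 1 library left out. The shares of all genes called in the alternative fits are not given here, so these counts have no background beside them.

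Signs of single genes that had not passed the test also changed. In experiment 1, Hsd17b7 was -0.0038 and Rnf139 -0.030 without a filter, Mylip was 0.0023 with upper-quartile scaling, and with 1 library left out Hsd17b7 ranged from -0.044 to 0.11 and Rnf139 from -0.10 to 0.11. In experiment 2, Acly was 0.052 with upper-quartile scaling, 0.0065 with limma-voom and 0.00095 without a filter. With 1 library left out of experiment 2, log2 fold changes ranged from -0.71 to 0.067 for Lss, -0.058 to 0.58 for Tm7sf2, -0.16 to 0.35 for Sc5d, -0.66 to 0.024 for Insig1, -0.0096 to 0.24 for Scap, -0.45 to 0.018 for Stard4, -0.16 to 0.17 for Acly, -0.31 to 1.28 for Acss2, -0.14 to 0.41 for Acaca, -0.56 to 0.17 for Fasn, -0.073 to 0.73 for Elovl6, -1.44 to 1.58 for Scd1, -0.048 to 0.51 for Pggt1b and -0.42 to 0.025 for Cyp27a1. The cause was not tested. No paired analysis was possible because the libraries are numbered 1 to 8 and the groups share no number. With 2 libraries per group, a lone library was assumed to vary like the other groups.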
